A study of Mus musculus with 4 samples.

Results

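The genes that encode the AP-1 transcription factors were examined for open chromatin in mouse keratinocytes. The members were 10 listed genes: Jun, Junb, Jund, Fos, Fosb, Fosl1, Fosl2, Atf2, Atf3 and Batf3. Peaks of the 4 libraries with an overlap of 1 bp or more were joined, which gave 82641 regions, and those overlapping a member's gene body or the 25 kb on either side of it were kept. This gave 87 AP-1 gene regions, of which 51 were called in all 4 libraries, out of 40159 such regions in the whole set. The libraries were made by ATAC-seq, in which the Tn5 transposase cuts accessible DNA, from EpCam+CD49f-hi keratinocytes sorted from skin after 8 days of Aldara, a cream with 5% imiquimod that inflames the skin. WT and Mapk8-KO mice were compared, with 2 libraries of each, to ask what changes when the kinase JNK1, the product of Mapk8, is missing. All mice were females of 8 to 12 weeks and all received the cream, so no untreated skin was compared. In the Mapk8-KO mice (Mapk8∂Ep in the study) a floxed Mapk8 gene was deleted by a Cre recombinase under the keratin 14 promoter, so that the deletion is limited to cells with a history of keratin 14 expression. Controls were littermates, the floxed line was on a C57BL/6 background, and the sources used here do not say how many mice made up a library.

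AP-1 is a dimer of basic leucine zipper proteins. JUN proteins pair with each other, with FOS proteins or with ATF proteins, whereas FOS proteins need a partner from another family. JNK kinases phosphorylate c-Jun and ATF2 and thereby raise their activity, and Jun is itself a target gene of c-Jun and ATF2. JUN-FOS dimers bind the motif TGACTCA, which reads TGAGTCA on the other strand, whereas dimers with an ATF partner prefer the cyclic AMP response element (CRE) TGACGTCA. Fos, Fosb and Junb are immediate early genes, induced within minutes by growth factors, in part through the serum response factor, which binds the CArG box.

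The lists held between 49856 and 69927 peaks, and replicate 2 was the shallower library of each genotype. Taking WT 1 as 1, the relative depths of WT 2, Mapk8-KO 1 and Mapk8-KO 2 were 0.691, 1.12 and 0.644. The total numbers of reads are unknown. Of 9 keratinocyte markers, 7 had a called promoter region in all 4 libraries, whereas none of 6 leukocyte markers had one in any library. The summed depth-scaled promoter pileup of the keratinocyte markers was 437 and 392 fragments in WT and 601 and 582 in Mapk8-KO, and without Krt14 it was 399 and 367 against 422 and 413. A promoter was also called in all 4 libraries for 2 of 4 fibroblast, 1 of 3 endothelial and 3 of 4 melanocyte markers. Their summed depth-scaled pileups were 63.0 and 69.4 in WT against 73.5 and 69.9 in Mapk8-KO for fibroblasts, 50 and 78.1 against 58.3 and 34.2 for endothelium, and 141 and 139 against 152 and 186 for melanocytes. Per the study's methods, the sort also used antibodies against CD45, CD31 and CD140a, which mark leukocytes, endothelium and fibroblasts. The part of remaining cells of other types in the values given here was not tested. The promoter region of Mapk8 itself stayed called in the knockout, with pileups of 96, 73, 109 and 90 fragments. This promoter region does not check the deletion, because which part of the gene is deleted is not given in the sources used here. By RNA sequencing of cells sorted in the same way, the study reported a truncated Mapk8 mRNA in the knockout.

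The sequences shown first are the stretches before the transcription start site (TSS) in which the 5 promoters with a match hold it. A match is by sequence alone, and whether it acts on the gene was not tested. The stretches were read from GRCm38, the assembly that mm10 denotes, 5′ to 3′ on the gene's strand, with matches to the searched motifs in capitals. The motifs, searched on both strands, were the AP-1 motif, the CRE, its core TGACGT (which the CRE contains), TGACATCA and TTACCTCA, which are variant AP-1 sites of the Jun promoter, and the CArG box.
Jun, chr4:95052248-95052538, minus strand: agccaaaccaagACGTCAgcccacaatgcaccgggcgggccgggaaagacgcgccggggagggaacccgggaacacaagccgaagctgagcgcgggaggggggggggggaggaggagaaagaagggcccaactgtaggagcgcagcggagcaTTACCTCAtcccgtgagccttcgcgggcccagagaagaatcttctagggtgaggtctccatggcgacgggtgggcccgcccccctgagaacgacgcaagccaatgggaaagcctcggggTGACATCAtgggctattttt
Fos, chr12:85473569-85473841, plus strand: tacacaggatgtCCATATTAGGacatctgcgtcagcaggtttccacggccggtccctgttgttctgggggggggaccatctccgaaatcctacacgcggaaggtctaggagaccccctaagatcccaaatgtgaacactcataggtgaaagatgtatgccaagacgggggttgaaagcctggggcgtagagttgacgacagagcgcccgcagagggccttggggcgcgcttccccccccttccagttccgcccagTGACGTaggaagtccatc
Fosb, chr7:19310296-19310380, minus strand: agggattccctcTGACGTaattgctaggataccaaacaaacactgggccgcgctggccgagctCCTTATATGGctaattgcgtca
Jund, chr8:70698723-70698868, plus strand: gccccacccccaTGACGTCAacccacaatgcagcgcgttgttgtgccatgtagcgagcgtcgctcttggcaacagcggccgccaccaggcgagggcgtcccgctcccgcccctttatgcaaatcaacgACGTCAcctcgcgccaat
Fosl2, chr5:32135771-32135800, plus strand: ggagtctaaggtTGACGTgagtggatccac

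In the Jun promoter, TGACATCA began 45 bp and TTACCTCA 164 bp before the TSS. The Fos promoter held a CArG box 309 bp and a CRE core 66 bp before the TSS, and the Fosb promoter had the same pair of motifs at 266 and 317 bp. In Jund the full CRE lay 214 bp before the TSS. Among 41445 windows of 350 bases before the TSSs of coding transcripts, TGACATCA was found in 2.95%, TTACCTCA in 0.869%, the CArG box in 1.74%, the CRE in 2.23% and its core in 8.89%. The AP-1 motif itself was in 5.01% of these windows and in none of those searched for the 10 members. Junb, Fosl1, Atf2, Atf3 and Batf3 had no match of any kind there. The Atf3 window lay before its downstream start site, so this does not cover its upstream one.

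AP-1 motifs of the members lay mainly outside these windows, and the following sites are shown because they sit in regions that the results describe. In Fosl1 and Fosl2 the motif was found just after the TSS, within the 5′ UTR, 350 and 53 bp downstream. The remaining stretches come from the strongest regions far from any TSS.
Fosl2 after the TSS, chr5:32135844-32135870, plus strand: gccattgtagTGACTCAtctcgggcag
Fosl1 after the TSS, chr19:5447887-5447913, plus strand: gaggcgcgagTGAGTCAgaaccgcagc
Junb distal region, chr8:84985637-84985777, minus strand: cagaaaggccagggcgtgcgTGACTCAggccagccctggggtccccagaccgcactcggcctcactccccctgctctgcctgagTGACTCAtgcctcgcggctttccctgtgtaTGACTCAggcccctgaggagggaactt
Jund distal region, chr8:70682311-70682357, plus strand: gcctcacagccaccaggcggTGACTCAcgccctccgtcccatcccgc
Fosl1 distal region, chr19:5430030-5430076, plus strand: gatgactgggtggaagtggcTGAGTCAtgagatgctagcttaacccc

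Open regions were dense around these genes. Among protein-coding genes the median was 2.48 regions per 50 kb of window, whereas 9 of the 10 members had between 4.86 regions (Fosl2) and 10.1 regions (Junb) per 50 kb. Atf2 was the exception, with 1.98. Atf3, a stress-induced ATF protein, had the most regions, 14, of which 12 were called in all 4 libraries. Batf3, a dendritic cell factor of the AP-1 family, had 7 regions with 2 called in all 4 libraries. The windows reach into neighbours: the nearest TSS belonged to the member itself in 32 of the 87 regions, and 23 regions lay within 2 kb of another gene's TSS, such as those of Rnaseh2a, Prdx2, Hook2, Rtn2 and Drap1.

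Regions called in every library made up 58.6% of the AP-1 gene regions, against 48.6% of the whole set. In library order (WT 1, WT 2, Mapk8-KO 1, Mapk8-KO 2) 77, 66, 79 and 60 of the 87 were called. The 2 deeper libraries thus held more of them, whichever the genotype. Of the 15 regions called in 3 libraries, 11 lacked a call in Mapk8-KO 2 and 4 in WT 2, which are the shallower libraries.

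**Figure D1:**
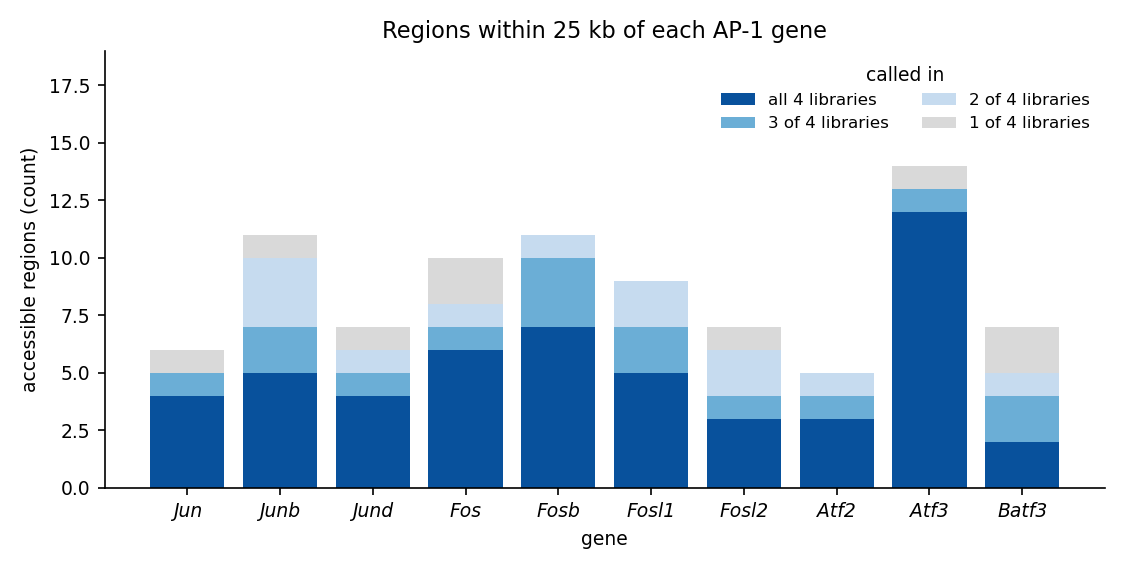
Number of accessible regions within 25 kb of each AP-1 gene (y axis, count) by gene (x axis), with the shade of each bar giving the number of libraries in which a region was called. Atf3 had 14 regions, 12 of them called in all 4 libraries, whereas Batf3 had 2 such regions of 7.

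A promoter region, here one within 500 bp of a TSS of a coding transcript of the member, was found in all 4 libraries for 9 of the 10 genes. Levels are given as the summit pileup, the number of fragments that cover the highest point of a peak, in the order WT 1, WT 2, Mapk8-KO 1 and Mapk8-KO 2, and then divided by relative depth where libraries are compared.

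In the JUN family, the Jun promoter (chr4:95051956-95053492) had the highest pileup of all 9, with 167, 118, 191 and 136 fragments. Divided by depth, this was 168.9 ± 2.64 in WT and 191 ± 28.2 in Mapk8-KO (SD, n = 2), and the libraries of the 2 genotypes did not overlap, although WT 2 (170.7) and Mapk8-KO 1 (171.2) were nearly equal. The summit lay within an intron of the noncoding RNA gene Junos, 124 bp before the Jun TSS, between both variant AP-1 sites. At Junb (chr8:84978569-84978910), whose product can restrain c-Jun, pileups were 66, 44, 95 and 50, or 66.0 and 63.7 after depth scaling in WT against 85.2 and 77.6 in Mapk8-KO. At Jund (chr8:70698365-70699340), the most constantly expressed JUN gene, they were 66, 48, 89 and 58, or 66.0 and 69.4 against 79.8 and 90.04, and the summit lay 138 bp before the TSS. All 3 JUN promoters were thus higher in both Mapk8-KO libraries after scaling, but none passed the test: the log2 difference, WT minus Mapk8-KO, was −0.17 for Jun, −0.33 for Junb and −0.32 for Jund, with adjusted p of 0.765, 0.583 and 0.581 (limma, all regions called in 4 libraries).

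In the FOS family, the Fos promoter (chr12:85473497-85474261) had pileups of 65, 44, 72 and 37, or 65.0, 63.7, 64.5 and 57.4 after scaling. The genotypes overlapped there, and the log2 difference of 0.08 had a 95% interval from −0.34 to 0.50. Fosb (chr7:19310019-19310468) had the lowest promoter in both WT libraries, with 39, 27, 58 and 29 fragments, or 39.0 and 39.1 against 52.0 and 45.02. Fosl1 (chr19:5447436-5447977), which encodes FRA-1, was the only promoter higher in both WT libraries, with pileups of 54, 43, 58 and 28, or 54.0 and 62.2 against 52.0 and 43.5. Its log2 difference was 0.29, with an interval from −0.17 to 0.74. Fosl2 (chr5:32135026-32136498), which encodes FRA-2, had 76, 45, 93 and 64 fragments, or 70.6 ± 7.70 in WT against 91.4 ± 11.3 in Mapk8-KO (SD, n = 2). None of the 4 FOS promoters passed the test.

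Of the ATF genes, Atf2 (chr2:73892381-73893276), whose protein is a JNK substrate, had pileups of 149, 105, 168 and 88, or 149, 152, 151 and 137 after scaling. The groups overlapped, and the log2 difference was 0.07 with an interval from −0.26 to 0.40. Atf3 has 2 start sites far apart. The downstream one carried a promoter region (chr1:191183187-191183806, within an intron of the longer transcript) with 117, 94, 156 and 118 fragments, or 126.5 ± 13.4 in WT against 162 ± 30.6 in Mapk8-KO (SD, n = 2). Its log2 difference of −0.34 had an unadjusted p of 0.0497 and an adjusted p of 0.478 in limma. At the upstream start site the nearest region lay 1353 bp away, with 83, 53, 105 and 48 fragments. Batf3 had no promoter region by this rule, and its nearest region, 771 bp from the TSS, was called in WT 1 alone, with 13 fragments.

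Of the 9 promoters, 6 were higher in both Mapk8-KO libraries after depth scaling, 1 in both WT libraries and 2 overlapped. Among all regions called in 4 libraries, 20.3% did not overlap with Mapk8-KO higher and 20.3% with WT higher. Within 2 kb of a TSS these shares were 28% and 10.7%, so that promoters in general leaned towards Mapk8-KO. The adjusted p of the 9 promoters ranged from 0.478 to 0.936 (limma). An exact permutation test of 2 against 2 libraries cannot give a p below 0.33.

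**Figure D2:**
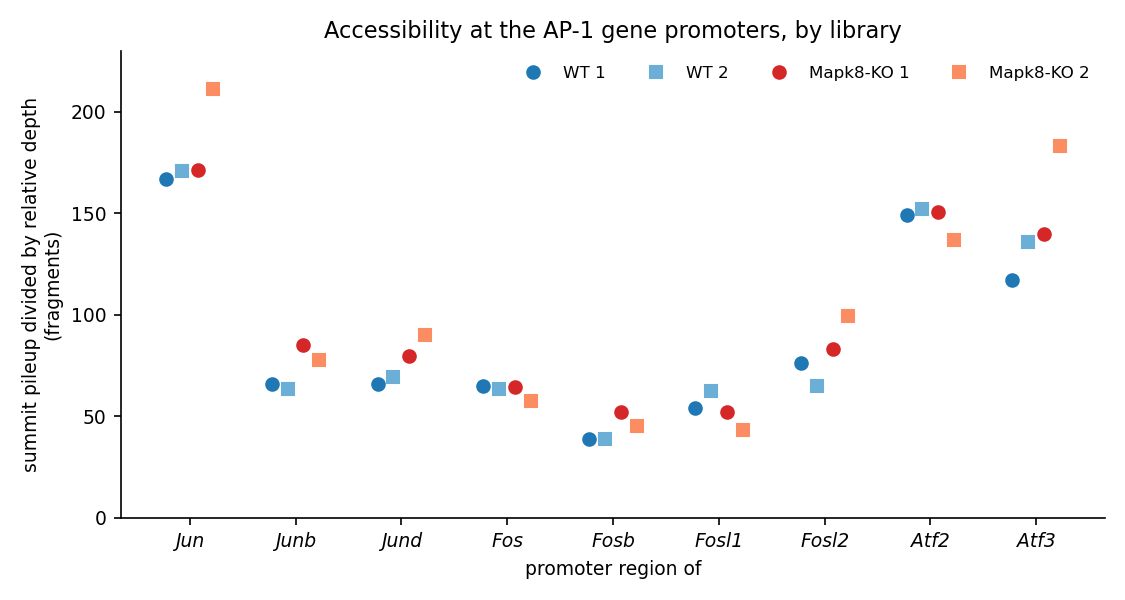
Summit pileup divided by relative depth (y axis, fragments) at the promoter region of each of 9 AP-1 genes (x axis), 1 point per library. Jun, Atf2 and Atf3 stand highest, and the genotypes overlap at Fos and Atf2.

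The AP-1 gene regions combined high pileups with a high local background. Among the 51 regions called in all libraries, the median pileup was 65, 41, 74 and 39 fragments, against 49, 34, 54 and 30 for all such regions. Their median local background, the pileup that MACS2 takes as the level around a peak, was 7.97, 4.83, 8.82 and 4.66 fragments, against 4.36, 2.88, 4.76 and 2.68. The fold enrichment, which divides pileup by background after adding 1 to each, was therefore low, with medians of 6.79, 6.47, 6.96 and 7.15 against 9.17, 8.69, 9.23 and 8.18. Expressed as percentiles within a library, the median member stood between 62.7 and 69.6 for pileup, between 77.8 and 81.7 for background, and between 23.7 and 37.2 for fold.

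Jun and Junb showed this most. The Jun promoter stood above percentile 98 for pileup in every library but at percentiles 10.5, 20.9, 8.24 and 28.5 for fold, since its background was 30.0, 17.9, 35.9 and 19.9 fragments. The Junb promoter was at percentiles 69.3, 66.8, 81.8 and 78.7 for pileup and at or below 1.01 for fold in every library. By contrast, Atf2 stood between percentiles 85.9 and 94.9 for fold and Fosl1 between 51.8 and 82.2. In 5 of the 9 promoters the background was above percentile 90 in every library. A ranking by fold and a ranking by pileup thus order the same promoters differently.

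**Figure D3:**
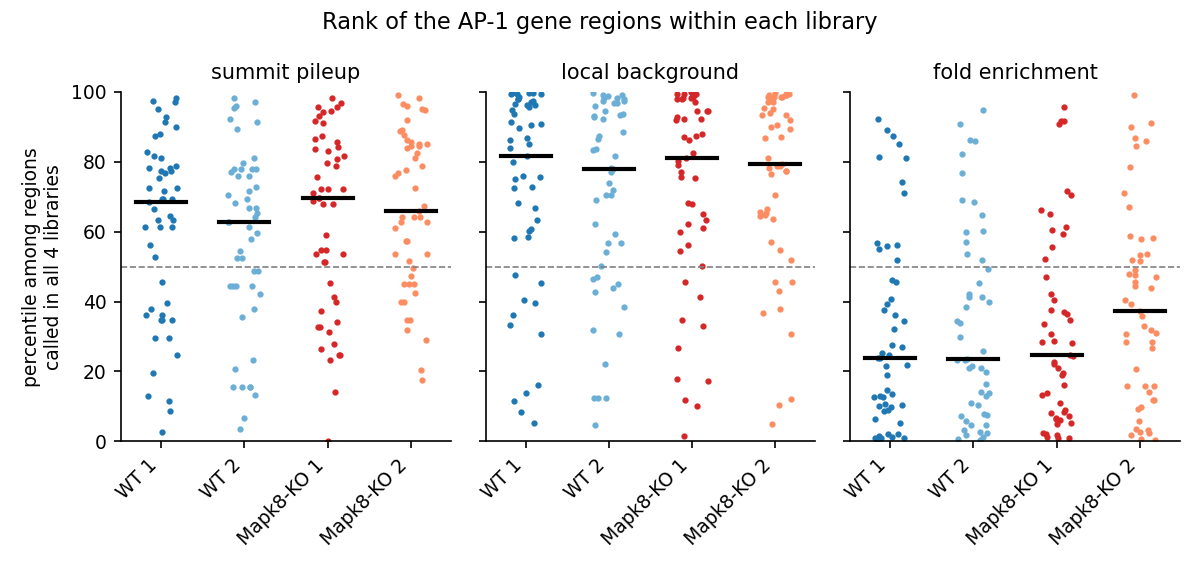
Percentile of the 51 AP-1 gene regions (y axis) among all regions called in 4 libraries, for summit pileup, local background and fold enrichment, with 1 point per region, a bar at the median and a dashed line at 50. The medians lie above 50 for pileup and background and below 50 for fold in each library (x axis).

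The mean percentile of fold was 31.6 and 33.4 in WT and 32.1 and 38.7 in Mapk8-KO, or 32.5 ± 1.32 against 35.4 ± 4.68 (SD, n = 2). The difference of −2.89 points was smaller than the SD of the Mapk8-KO libraries. It was −6.22 without Mapk8-KO 1 and 0.23 without Mapk8-KO 2, so that its sign rested on 1 library.

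Between genotypes, most of the AP-1 gene regions leaned towards Mapk8-KO without passing the test. The log2 difference in pileup, WT minus Mapk8-KO, was negative in 34 of the 51 regions (66.7%), against 50.7% of all 40159. The median was −0.17, with a range from −0.89 to 0.52, against −0.01 for all regions. Without Mapk8-KO 2 the median was −0.083, and without WT 2 it was −0.097, with 30 of 55 regions (54.5%) negative. After depth scaling, 21 of the 51 (41.2%) were higher in both Mapk8-KO libraries and 6 (11.8%) in both WT libraries, against 20.3% of all regions in each direction. Unadjusted p was below 0.05 in 5 regions (9.80%), each with the larger pileup in the knockout, against 3.72% of all regions in that direction, and in 0 regions higher in WT, against 6.72%.

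By family, the lean was widest for the FOS genes. Of their 21 regions called in all libraries, 17 had a negative difference, with a median of −0.34. The JUN genes had 9 of 13, with a median of −0.16, and Atf2, Atf3 and Batf3 together had 8 of 17, with a median of 0.03. At Fosl2 all 3 regions and at Fosb 6 of 7 were negative, whereas both of those at Batf3 were positive. Differences between families were not tested.

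**Figure D4:**
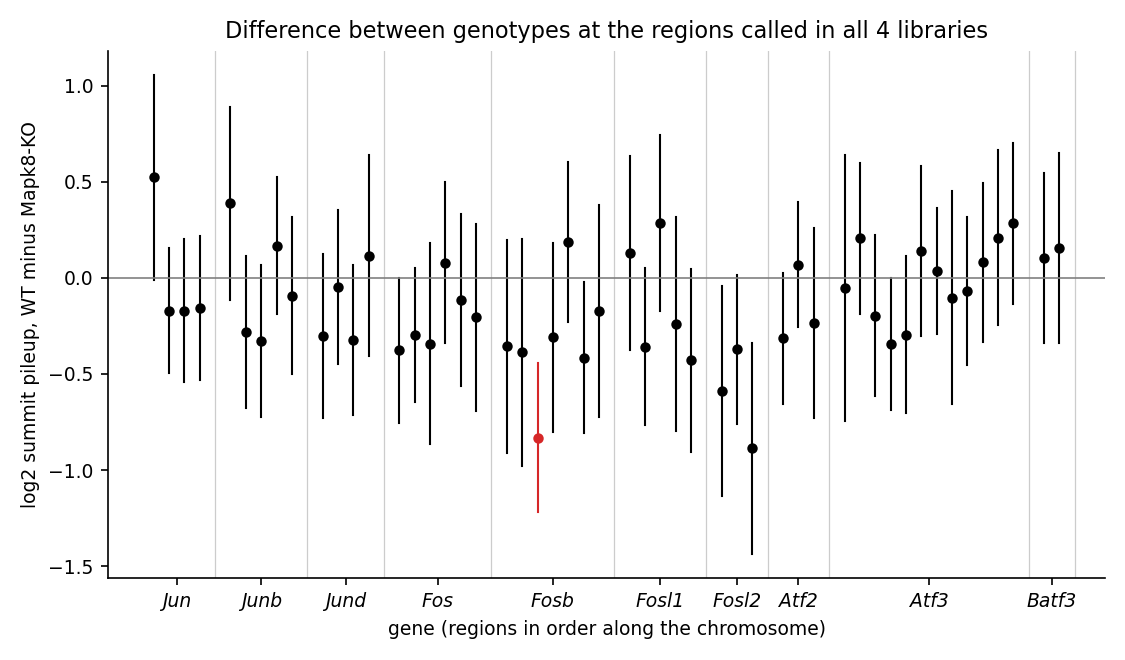
Log2 difference in summit pileup, WT minus Mapk8-KO (y axis), with 95% intervals from limma, for the 51 AP-1 gene regions called in all 4 libraries, grouped by gene (x axis). The Fosb region in red, at −0.83, is the only one with an adjusted p below 0.05.

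The single region that passed was at Fosb, and it was not the promoter. It covered chr7:19303203-19304480, with its summit in the 3′ UTR of Fosb, 5668 bp after the TSS. In library order the pileups were 84, 39, 144 and 75 fragments. After depth scaling, both Mapk8-KO libraries (129 and 116) were above both WT libraries (84.0 and 56.4), a 1.78-fold difference in the fit. The log2 difference was −0.83, with a 95% interval from −1.22 to −0.44 and an adjusted p of 0.0474 (limma). Of all regions, 0.0199% were called in this direction and 0.214% higher in WT, where no AP-1 gene region was called. Without WT 2 the log2 difference shrank to −0.53. Without WT 1, Mapk8-KO 1 and Mapk8-KO 2 it was −1.12, −0.76 and −0.93. The call was lost with no variance trend (adjusted p of 0.301, limma) and with quantile normalization (adjusted p of 0.100, limma).

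This region too had a high background, of 14.8, 7.88, 25.03 and 10.6 fragments, above percentile 93 in each library. Its fold enrichment was 5.37, 4.51, 5.57 and 6.55, and on that scale the log2 difference was −0.31 with an adjusted p of 0.837. The difference in fold was thus smaller than that in pileup. The region holds no match to any of the motifs searched.

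The 3′ ends of other members were also open, and these regions were picked out after the Fosb values had been seen. In the 3′ UTR of Jun (chr4:95049289-95050300) no peak was called in WT 2, and the pileups of the other 3 libraries were 84, 100 and 45, beside a background of 29.7, 35.6 and 19.7 fragments. Their fold lay below percentile 1 of each whole list, where a call is easily missed. In the 3′ UTR of Fos (chr12:85476514-85476999) the pileups were 33, 28 and 42, with no call in Mapk8-KO 2, and an AP-1 motif lay near the summit. Atf3 had 99, 52, 76 and 53 fragments over its 3′ UTR (chr1:191169739-191171309).

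Fosl2 came next. A region between genes, 43.1 kb after the TSS and past the end of the gene (chr5:32178746-32179047), had pileups of 23, 18, 46 and 32 fragments. Scaled by depth, this was 24.5 ± 2.15 in WT and 45.5 ± 5.97 in Mapk8-KO (SD, n = 2). The log2 difference was −0.89, the largest of the 51, with an adjusted p of 0.161 (limma). It ran from −0.78 without Mapk8-KO 2 to −1.02 without Mapk8-KO 1. The fold of this region also rose in rank, from percentiles 1.21 and 3.34 in WT to 18.9 and 31.7 in Mapk8-KO. Upstream of Fosl2, a region at chr5:32120905-32122281 had pileups of 26, 22, 42 and 32, with a log2 difference of −0.59 and an adjusted p of 0.435.

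The remaining region with an unadjusted p below 0.05 lay 12.6 kb upstream of Fosb (chr7:19322330-19322815, in an intron of D830036C21Rik). It had pileups of 79, 41, 100 and 60 and a log2 difference of −0.42, with an adjusted p of 0.444 (limma). The largest difference in the other direction was 0.52 at chr4:95040747-95041205, 11.2 kb after the Jun TSS in an intron of the noncoding gene Gm12703. This region has an AP-1 motif near its summit. Its pileups were 46, 28, 36 and 18, and the adjusted p was 0.488.

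The lean moved with base composition. The median G+C content was 56.6% in the 51 regions and 50.8% in all, and across all regions the median log2 difference went from 0.11 in the lowest of 10 GC classes to −0.14 in the highest. When each class was centred on its own median, the AP-1 gene regions had a median of −0.12, with 34 of 51 negative. These were not all the same regions, since the strongest distal regions of Jund and Atf3 changed sign. More than 2 kb from any TSS, 20 of 28 AP-1 gene regions were negative, against 42.4% of all such regions. Within 2 kb of a TSS, 14 of 23 (60.9%) were negative, against 65.4% of all such regions. With this centring the Fosb region had an adjusted p of 0.0284 and the Fosl2 region past the gene one of 0.134 (limma), and the Jun promoter went from −0.17 to −0.051.

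**Figure D5:**
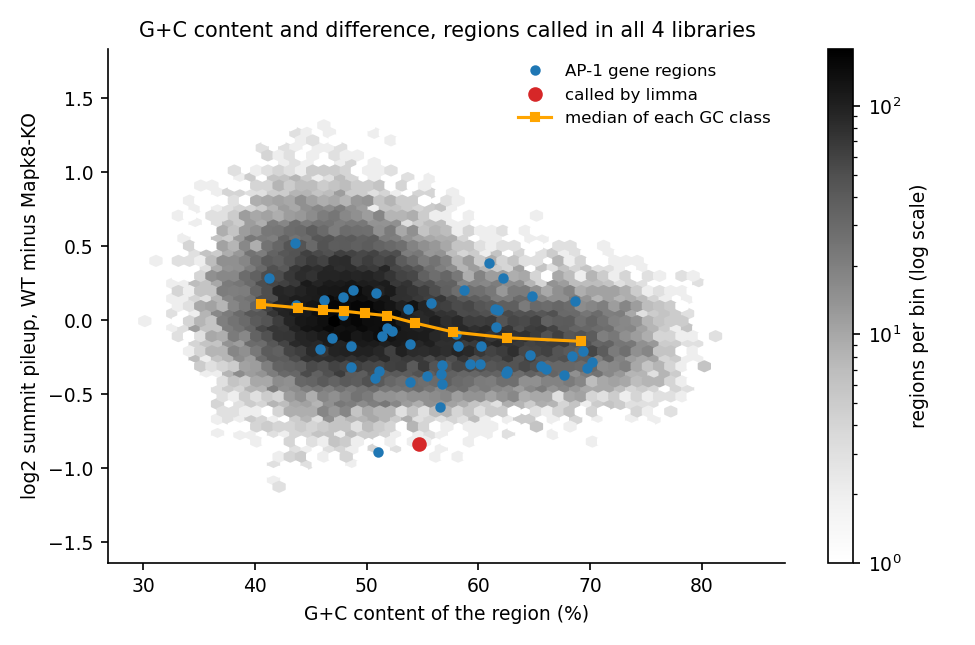
G+C content (x axis, %) and log2 difference in summit pileup, WT minus Mapk8-KO (y axis), for all 40159 regions called in 4 libraries (grey, shade on a log scale), with the 51 AP-1 gene regions as points. The median of each GC class falls from 0.11 to −0.14, and the Fosb region called by limma lies at −0.83.

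Ranks within a library gave few differences. A region was ranked apart when its lowest percentile of fold in one genotype was at least 10 points above its highest in the other. For WT there was 1 of 51 (1.96%, against 4.65% of all regions), and for Mapk8-KO there were 2 of 51 (3.92%, against 4.07%). The shares were thus near or below the background. The WT one is the promoter of a neighbour of Junb, Rnaseh2a (chr8:84965715-84966288), which encodes a ribonuclease H2 subunit, with pileups of 51, 31, 40 and 24. Its log2 difference was 0.39, with an adjusted p of 0.619. The Mapk8-KO ones are both at Fosl2: the region past the gene described above, and the promoter, whose percentiles were 23.8 and 19.98 in WT and 37.1 and 47.8 in Mapk8-KO. The promoter had a log2 difference of −0.37 and an adjusted p of 0.504. Its AP-1 site after the TSS is printed above.

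Calls limited to 1 genotype were as rare. In both WT libraries and no Mapk8-KO library 2 of 87 regions were called (2.30%, against 2.17% of all regions). They lay 13.9 kb upstream of Fos (chr12:85459678-85460111; 30 and 20 fragments) and in an intron of Atf2 (chr2:73861424-73861647; 17 and 15 fragments). In both Mapk8-KO libraries and no WT library there were 3 (3.45%, against 1.65%). One was 27.8 kb from the Batf3 TSS (chr1:191125923-191126239), with 39 and 27 fragments. The other two were at Junb: an intronic region of Rnaseh2a (chr8:84968741-84969039; 25 and 18 fragments) and a region 6.29 kb upstream (chr8:84984840-84985135; 57 and 31 fragments). All 5 stood at or below percentile 31.5 of fold in their library's whole list, so a missing call in another library does not show that the region was closed there.

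Far from TSSs, by more than 2 kb, the strongest region of each gene did not pass the test, apart from that at Fosb, which did, and that at Junb, which was not tested because Mapk8-KO 2 had no call. At Atf3 it was intronic (chr1:191193220-191194267), with 151, 97, 156 and 93 fragments, a log2 difference of 0.03 and an interval from −0.30 to 0.37. At Atf2 it was also intronic (chr2:73867882-73868851), with 110, 80, 146 and 97 fragments and fold percentiles of 87.3, 86.0, 95.7 and 99.1. Apart from Fosb, the other genes had theirs outside the gene body. Fos had its strongest 18.4 kb upstream (chr12:85455040-85455707), with 97, 72, 126 and 87 fragments. For Jun it lay 16.3 kb upstream in an intron of Junos (chr4:95068332-95068831), with 78, 58, 101 and 59 fragments.

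The Jund one was 16.6 kb upstream (chr8:70682206-70683001), with 78, 47, 74 and 55 fragments, and the Fosl1 one 17.5 kb upstream (chr19:5429780-5430328), with 63, 42, 78 and 58. Both hold an AP-1 site near the summit, printed above. Batf3 had its strongest 24.8 kb past its TSS (chr1:191122852-191123341), with 58, 40, 55 and 38 fragments. Junb had it 7.44 kb upstream (chr8:84985651-84986344), with 66, 37 and 62 fragments and no call in Mapk8-KO 2. That region holds the 3 AP-1 sites printed as a single stretch, all more than 100 bp from the summit. Of the strongest regions called in all 4 libraries, that of Fosb passed the test. That of Fosl2 was the upstream region described above (chr5:32120905-32122281), with an adjusted p of 0.435 (limma). For each of the others the adjusted p was above 0.5 (limma).

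An AP-1 motif was found within 100 bp of the summit in 19 of the 87 regions (21.8%), against 23.7% of all regions. Among those more than 2 kb from any TSS the shares were 28.6% (14 of 49) and 28.0%. These shares lay close to those of all regions. The CRE core was found in 15 regions (17.2%), against 4.26%, and the CArG box in 3 (3.45%), against 0.980%. For the CRE core and the CArG box, shares by distance from a TSS were not compared. More AP-1 gene regions lay within 2 kb of a TSS, at 43.7% against 26.7% of all regions. Of the 19, 11 were among the 37 regions of FOS genes, 4 among the 24 of JUN genes and 4 among the 26 of Atf2, Atf3 and Batf3. These motif counts say nothing of which protein binds there.

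The same windows around 22 other basic leucine zipper genes held 153 regions, of which 81 (52.9%) were called in all libraries. Of these 81, 42 had a negative log2 difference, with a median of −0.02. None was called by limma, and 5 had an unadjusted p below 0.05. In ranks, 2 were higher in WT, in introns of Creb1 and Atf7, which encode CRE-binding factors. There were 7 higher in Mapk8-KO, among them regions at or near Batf2, Atf4 and Creb5, of which Atf4 had 2. The Creb5 one overlapped a Creb5 TSS, with pileups of 34, 34, 55 and 36 fragments, a log2 difference of −0.36 and an adjusted p of 0.644 (limma). Calls in 1 genotype alone numbered 2 of 153 for WT and 3 of 153 for Mapk8-KO, against 2.17% and 1.65% of all regions. Of those in Mapk8-KO, 1 was in the coding exon of Cebpd (33 and 27 fragments).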

How the data were processed

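Paired reads were mapped by the authors to mm10 and peaks called by MACS2 in each library, without a control and not on pooled libraries. The methods name Bowtie2, whereas the submitters' processing notes name STAR 2.5.3 and Trimmomatic 0.36. No Tn5 shift is stated. The deposited lists give a score, a fold (ratio) of summit pileup over local background, −log10 p and −log10 q, and the summit position. Reads per region were not used.

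From these, the whole-number summit pileup and the background were recovered from fold and −log10 p (whole to within 0.05 in at least 99.996% of peaks), and tested on simulated data. Log2 pileups of the 40159 regions called in all 4 libraries were centred on the median log2 ratio to the region mean and tested with limma 3.58.1 in R 4.3.3, with a trended variance and p-values adjusted by Benjamini-Hochberg over all of them. Depth-scaled values divide pileup by the relative depth from that centring. Intervals are 95%. The p-values and intervals rest on the spread between 2 libraries a genotype, which limma shares across regions. They do not measure the spread of a single region on its own. Genes and TSSs are from GENCODE release 21 (basic), and a TSS may be of any transcript unless called coding.

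Regions named were the promoter (within 500 bp of a coding TSS of the member), the strongest region over 2 kb from any TSS, and each region called, ranked apart or called in 1 genotype. The upstream region of Fosb, the region after Jun, the upstream start site of Atf3 and the 3′ UTR regions of Jun, Fos and Atf3 were added after values were seen, as were the Fos, Jun, Fosl1 and Junb sequences. The members, gene lists and tests were chosen with earlier results of these data known. Alternatives were a stricter q, lists of equal length, a cover of 50%, windows of 10 and 50 kb, other ranks and gaps, other scalings and filters, a replicate block, and leaving out each library. Replicate numbers do not pair the libraries.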

Additional observations from a re-analysis of the deposited data

How the results depend on the processing

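Of 87 alternatives for the counts and the mean percentile, 51 moved no value beyond 1.5 times or the SD between replicates. The 1 call by limma became 0 with log2 fold enrichment, with no variance trend and with quantile normalization, where all regions gave 0, 0 and 29 calls (2698, 3898 and 4090 at unadjusted p below 0.05), and it is lost by construction among regions whose nearest TSS belongs to the member (0). Leaving out a library leaves 1 library in a genotype, so for those limma fits only log2 differences are given. At the Fosb region the log2 difference stayed negative, at −0.31 with fold enrichment, −0.83 with no trend, −0.82 with quantile normalization and −0.53 without WT replicate 2, and without Mapk8-KO replicate 1 the Fosl2 region past the gene reached −1.02. Replicate numbers shared little (r = 0.0392 between the changes from replicate 1 to 2 across regions). With the replicate block limma made 1 call among AP-1 gene regions and 309 in all against 94, 2 regions ranked higher in WT, 4 ranked higher in Mapk8-KO, and the mean percentile difference was −2.89.

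The 2 regions called in WT alone became 1 with lists of equal length, 1 with a cover of 50% and 1 with windows of 10 kb. Leaving out each library gave 2 to 13 of these, 3 to 7 called in Mapk8-KO alone, 4 to 6 ranked higher in WT, 4 to 16 in the knockout and 51 to 62 called in all. The numbers ranked apart (WT, Mapk8-KO) were 2 and 5 by −log10 p in place of fold, 5 and 6 with a gap of 5 points, 0 and 0 with 20 points, and with whole-list percentiles, chosen after seeing the data, 0 in WT. Windows of 10 kb left 30 regions called in all libraries and 1 ranked higher in Mapk8-KO. Regions whose nearest TSS belongs to the member, also chosen after seeing the data, numbered 20 called in all, 0 in Mapk8-KO alone, 0 with a higher rank in WT and 1 with a higher rank in Mapk8-KO.

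Of 253 alternatives for single regions, 11 reversed the sign, all near 0. The strongest distal Jund region became 0.072 with GC centring, alone or with the replicate block, and ran from −0.23 to 0.11 without each library in turn, with 0.064 without WT replicate 2. The Atf3 one became −0.029 with GC centring, alone or with the replicate block, and −0.13 with fold enrichment, and ran from −0.014 to 0.0997 without each library, the low end being without WT replicate 1. The Batf3 one ran from −0.024 (without Mapk8-KO replicate 1) to 0.21. The promoters of Fos and Atf2 ran from −0.032 to 0.17 and from −0.028 to 0.14, and both were negative without Mapk8-KO replicate 2. The cause of these changes was not tested. Depth limits weak regions, since the lowest pileup called in a library was 8 to 10 fragments.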
